A study of Macaca mulatta with 30 samples.

Results

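Cytochrome P450 genes were followed across liver, pancreas and the 3 major salivary glands of the rhesus macaque (Macaca mulatta). The members were the genes whose symbol begins with CYP, a family number, a subfamily letter and a gene number, and that exceeded 1 TPM (the unit of the deposited table, a gene's length-adjusted share of the transcripts of its library) in at least 1 of the 30 libraries. This rule gave 32 genes of the 21292 in the table. The pattern alone matched 35 symbols, and the 3 left out were CYP11B1, CYP19A1 and CYP11B2, whose highest values were 0.249, 0.130 and 0.0552 TPM. Just inside the limit lay CYP4F8 at 1.23 TPM, CYP27B1 at 2.01 TPM and CYP1B1 at 2.86 TPM in their highest library. The study, on evolution of the primate amylase locus, took flash-frozen liver, pancreas, parotid, submandibular and sublingual tissue from the same 6 animals, 4 females (animals 1 to 4) and 2 males (animals 5 and 6), with 1 RNA library per tissue and animal. The salivary pieces were labelled as left glands, except the parotid of animal 3, whose library name carries R in place of L. Neither age nor any treatment is given in the labels. The question addressed here is which P450 genes are expressed outside liver, and at what level.

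Cytochrome P450 enzymes are heme proteins that insert an oxygen atom into their substrate with electrons passed on by a partner protein. Enzymes of the CYP1, CYP2 and CYP3 families oxidise drugs, alcohols and other foreign compounds, mainly in the endoplasmic reticulum of hepatocytes. Other members have fixed substrates in the body: fatty acids (CYP4), cholesterol and bile acid precursors (CYP7A1, CYP27A1, CYP39A1), steroid hormones (CYP17A1, CYP21A2), vitamin D (CYP2R1, CYP27B1) and retinoic acid (CYP26A1). By these roles the members comprised 20 genes of drug and foreign compound metabolism, 4 of fatty acids, 3 of bile acids and cholesterol, 2 of steroid hormones, 2 of vitamin D and 1 of retinoic acid. Several lie side by side in the genome and are close copies. In the RefSeq gene table CYP2A23 lay between CYP2A24 and CYP2B6, CYP2C93 between CYP2C8 and CYP2C76, CYP3A43 next to CYP3A4, and CYP3A5 next to CYP3A7. How reads shared by near-identical copies were divided is not given in the sources used here, so single values within the CYP2A, CYP2C, CYP3A and CYP4F groups are uncertain.

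Some libraries stood apart from the others of their label. The pancreas piece of animal 4 had little acinar RNA, with a median of 359 TPM over 9 acinar markers beside 13731 to 33622 TPM in the other animals. Its submandibular piece was poor in salivary acinar RNA, at a median of 277 TPM over 6 markers beside 10627 to 29111 TPM. All 5 adipocyte and all 5 fibroblast markers were highest in these 2 libraries within their tissue, as were 6 of 6 macrophage markers in the pancreas and 5 of 6 in the submandibular gland. Skeletal muscle genes (8 markers) had a median of 10718 TPM in the parotid of animal 6 and 0.483 to 912 TPM in the other parotids. They were also high in the sublingual glands of animals 1 and 5 (medians of 1133 and 2717 TPM beside 1.39 to 38.1 TPM). In the sublingual libraries of animals 1 and 4 all 12 genes of a stratified squamous epithelium list, drawn up after the values were seen, were higher than in the other 4, with sums of 44626 and 119832 TPM against 143 to 624 TPM. The sublingual library of animal 4 also had the lowest salivary acinar sum of that tissue (4347 TPM beside 35164 to 346369 TPM). Hepatocyte markers were present in liver and at a low level in all other libraries: the median of 13 such genes was 3927 to 8936 TPM in liver and between 18.4 and 76.3 TPM in each of the 24 other libraries. Acinar markers were found in liver too, at a lower level than in most libraries of their own glands. The 9 pancreatic ones summed to 1502 to 4595 TPM in liver and the 6 salivary ones to 6336 to 9385 TPM. In tissue pieces of this kind, fewer cells of a type and less RNA per cell cannot be told apart.

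P450 transcripts were far more abundant in liver than in any of the glands. The 32 members summed to 8206 to 15089 TPM in the 6 liver libraries (median 10056.5), to 126 to 314 TPM in pancreas (median 174), to 69.7 to 99.1 TPM in parotid (median 83.5), to 51.2 to 194 TPM in the submandibular gland (median 81.0) and to 110 to 188 TPM in the sublingual gland (median 142). The liver range did not overlap that of any other tissue. A mean of at least 100 TPM was reached by 16 members in liver and by 0 in the other tissues. A mean of at least 10 TPM was reached by 25 members in liver, 6 in pancreas, 2 in parotid, 3 in submandibular and 4 in sublingual gland.

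Low-level detection outside liver was common, among the members and among all genes. A gene was counted as detected where at least 5 of the 6 libraries of a tissue held at least 1 TPM, which 52.0% of all genes in the table did in liver, 47.0% in pancreas, 39.6% in parotid, 39.7% in submandibular and 49.9% in sublingual gland. By this measure 29 of 32 members were detected in liver, 21 in pancreas, 15 in parotid, 14 in submandibular and 18 in sublingual gland. Members had been chosen for exceeding 1 TPM in at least 1 library, and all genes had not, which favours detection of members. These counts are therefore not read as a trait of P450 genes. In all 5 tissues 12 members were detected, among them CYP2A23, CYP2A24, CYP2A26, CYP2C8, CYP2C76, CYP2C93, CYP2D6, CYP2E1, CYP3A4, CYP27A1 and CYP2R1. Another 8 were detected in liver alone: CYP1A1, CYP1D1, CYP3A5, CYP3A43, CYP7A1, CYP21A2, CYP26A1 and CYP27B1. The 3 detected in no tissue, CYP1B1, CYP4F8 and CYP4F22, were also the 3 whose highest tissue mean lay outside liver. With 5 TPM as the minimum, detection fell to 6 members in pancreas, 4 in parotid, 3 in submandibular and 8 in sublingual gland. The share of all genes was not computed at this minimum, nor for detection in all 5 tissues or in liver alone. When TPM were recomputed without the 100 most abundant genes, it rose to 24 members in parotid (61.3% of all genes) and 25 in submandibular gland (62.6% of all genes). With that scaling 22 members were detected in all 5 tissues and 4 in liver alone, CYP1A1, CYP1D1, CYP7A1 and CYP21A2.

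**Figure D1:**
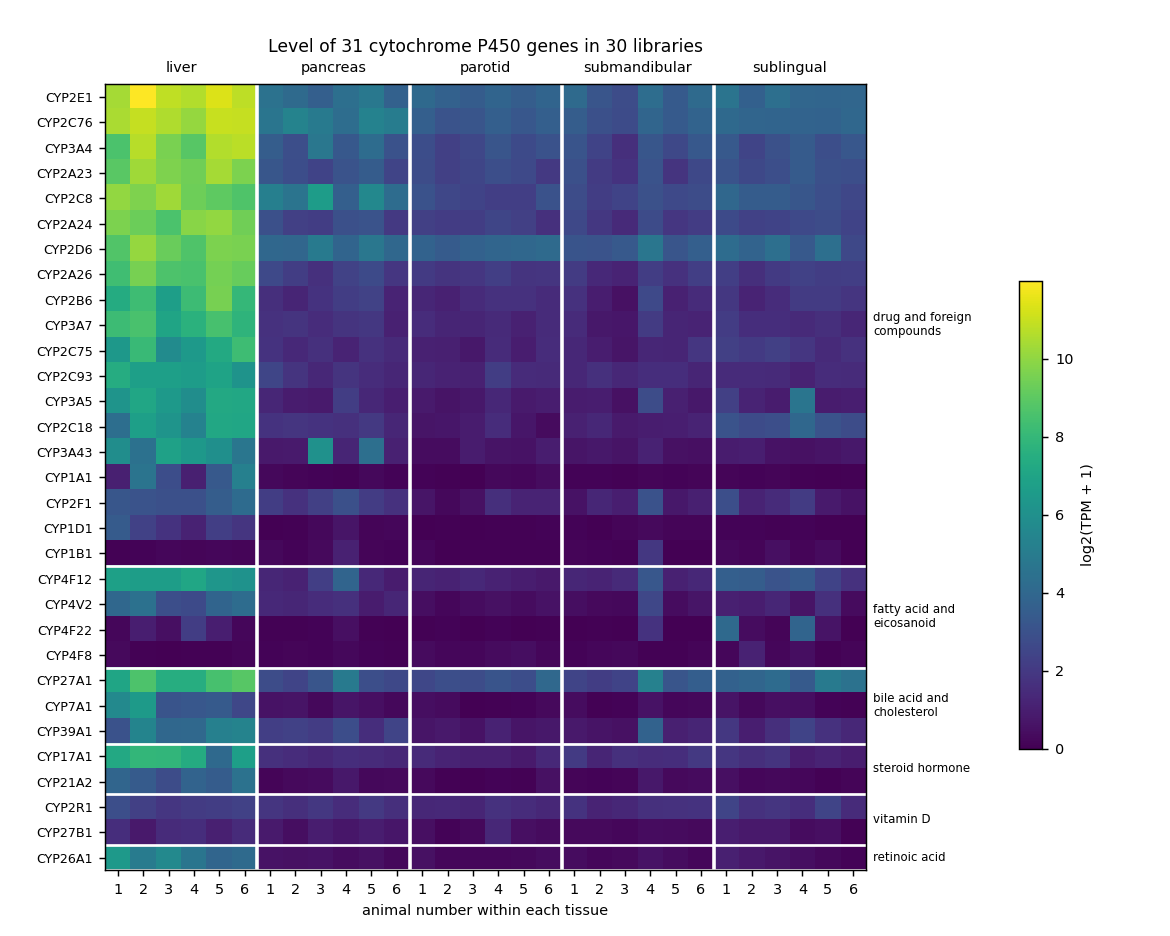
Level of 31 of the 32 P450 genes (rows, grouped by role and ordered by liver mean) in each of the 30 libraries (columns, animals 1 to 6 within each tissue), as log2(TPM + 1) on a linear colour scale. Liver columns are bright for the members with a mean of at least 10 TPM. The brighter cells outside liver include CYP2E1 and CYP2D6 in every tissue and CYP2C8 and CYP2C76 in pancreas. They also include CYP3A43 in single pancreas libraries, CYP4F22 and CYP3A5 in single sublingual libraries, and CYP27A1.

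Each tissue was compared with liver by limma on log2(TPM + 1), with animal as a block and Benjamini-Hochberg adjustment over 13550 genes. Of the members, 29 passed the filter of 1 TPM in 6 libraries, and 6 of these (CYP1A1, CYP1D1, CYP7A1, CYP21A2, CYP26A1 and CYP27B1) passed it only because the liver libraries were counted, so that a lower level elsewhere was built into their selection. The 4 comparisons share the liver libraries and are not independent. In parotid 29 of the 29 tested members were lower than in liver, where 53.4% of all genes tested were lower. The submandibular gland also had 29 lower members (45.1% of all genes). Sublingual gland (18.7% of all genes) and pancreas (23.6%) each had 28. Higher members numbered 0 in each of the 4 tissues, by limma's adjusted p and also at an unadjusted p under 0.05, against 4.61% of all genes in parotid, 5.68% in submandibular gland, 12.8% in sublingual gland and 6.76% in pancreas. The median log2 difference from liver over the 29 members was -5.49 in parotid, -5.22 in submandibular, -4.97 in sublingual and -4.88 in pancreas, beside -0.84, -0.70, -0.10 and -0.36 over all genes.

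The background depended on the normalization. With trimmed-mean scaling, which brings the median of all genes to 0.02 in parotid, -0.01 in submandibular, 0.01 in sublingual and -0.04 in pancreas, 23.1%, 25.7%, 23.5% and 21.4% of all genes were lower than in liver and 21.0%, 21.9%, 20.7% and 15.4% were higher. Under that scaling and under quantile normalization every member called was lower than in liver. When TPM were recomputed without the 100 most abundant genes, CYP4F8, which did not pass the filter otherwise, was called higher in parotid (log2 difference 1.01, SE 0.28, limma adjusted p = 0.00516), at a parotid mean of 0.222 TPM.

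The most abundant members in liver were enzymes of drug and alcohol oxidation. CYP2E1, which oxidises ethanol and small solvents, took 20.5% of the summed P450 TPM in liver, CYP2C76, a macaque enzyme of the drug-metabolising CYP2C subfamily, 15.3%, and CYP3A4, which handles many common drugs, 10.1%. CYP2E1 ranged from 1341 to 4075 TPM in liver (median 1819) and from 5.81 to 26.5 TPM in the other 24 libraries. The groups did not overlap, and the log2 difference from liver was between -7.36 (SE 0.31, submandibular, limma adjusted p = 5.26e-17) and -6.80 (SE 0.31, pancreas, adjusted p = 3.68e-16). CYP3A4 ran from 391 to 1712 TPM in liver (median 1163) and had medians of 9.76 TPM in pancreas, 5.77 in parotid, 6.37 in submandibular and 7.66 in sublingual gland. Its highest library outside liver was the pancreas of animal 3, at 26.2 TPM, still below every liver library.

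The CYP2A enzymes, whose human counterparts oxidise nicotine and coumarin, fell over a similar range. CYP2A24 ran from 385 to 1055 TPM in liver and from 1.67 to 7.40 TPM elsewhere, and its log2 difference of -7.29 (SE 0.23, limma adjusted p = 2.28e-19) was the largest of any member in parotid. CYP2A23 and CYP2A26 had liver medians of 805 and 488 TPM and stayed at or below 10.3 and 5.48 TPM outside liver. CYP3A7, known in humans as the CYP3A form of fetal liver, ran from 126 to 376 TPM in liver and from 0.649 to 3.37 TPM outside it. These genes, with CYP2E1, CYP2C76 and CYP3A4, made up the 5 largest falls of each of the 4 tissues.

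CYP2D6, an enzyme of many antidepressants and opioids, was among the 3 members with the highest mean in each tissue outside liver. It ran from 410 to 1098 TPM in liver (median 685). Its medians elsewhere were 15.2 TPM in pancreas, 13.4 in parotid, 8.51 in submandibular and 15.7 in sublingual gland, with single libraries between 5.05 and 29.7 TPM. It had a mean of at least 10 TPM in every tissue, as did CYP2E1 and no other member. The submandibular mean of 11.4 TPM rested partly on animal 4 (25.0 TPM) and was 8.66 TPM without that library.

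CYP1A1 and CYP1B1 are the members best known for induction by aryl hydrocarbons outside liver. CYP1A1 stood at 1.07, 23.7, 6.10, 1.05, 9.27 and 36.2 TPM in the livers of animals 1 to 6, the widest spread of any member there. It stayed at or below 0.335 TPM in the 24 other libraries. CYP1B1 was at or below 0.176 TPM in liver and exceeded 1 TPM in 2 libraries only, the pancreas (1.13 TPM) and the submandibular gland (2.86 TPM) of animal 4, the same 2 libraries in which fibroblast and adipocyte markers were highest. The part of those cells in these values was not tested.

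Of the 4 fatty acid members, CYP4F12 and CYP4V2 passed the filter and were lower than in liver in all 4 tissues. CYP4V2, a fatty acid hydroxylase, ran from 5.55 to 21.1 TPM in liver, from 0.874 to 2.15 TPM in pancreas and from 0.169 to 0.497 TPM in parotid. The log2 difference from liver was -2.35 (SE 0.35, limma adjusted p = 5.15e-06) in pancreas and -3.27 (SE 0.35, adjusted p = 1.49e-08) in parotid. CYP4F22, which hydroxylates very long chain fatty acids for the lipid barrier of stratified epithelium, was the only member with a tissue mean of at least 5 TPM that had its highest mean outside liver. Its level in the sublingual libraries of animals 1 to 6 was 16.3, 0.333, 0.121, 13.8, 0.534 and 0.0206 TPM. The 2 high libraries were those of animals 1 and 4, in which the squamous epithelium genes KRT13, KRT5, SPRR3 and CRNN and the other 8 of that list were also highest, and the part of such epithelium in the value was not tested. With no filter on low values, CYP4F22 was lower in parotid than in sublingual gland (log2 difference -1.46, SE 0.47, limma adjusted p = 0.0220). It did not pass for sublingual gland against liver (0.69, adjusted p = 0.316), against pancreas (1.40, adjusted p = 0.0516) or for submandibular against sublingual gland (-1.22, adjusted p = 0.0680). When TPM were recomputed without the 100 most abundant genes, it passed against pancreas (1.63, adjusted p = 0.0221), parotid (-1.60, adjusted p = 0.0257) and submandibular gland (-1.43, adjusted p = 0.0416).

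The bile acid group held the member with the highest mean in the sublingual gland. CYP27A1, the mitochondrial sterol 27-hydroxylase that also acts in macrophages, ran from 133 to 473 TPM in liver (median 270). Its median was 6.08 TPM in pancreas, 6.20 in parotid, 6.23 in submandibular and 15.5 in sublingual gland, where all 6 libraries lay between 9.44 and 29.9 TPM. The highest was that of animal 5, which was also the highest of the 6 in the medians of skeletal muscle, adipocyte and fibroblast markers. The library of animal 1, also rich in muscle markers, had 12.2 TPM of CYP27A1. That of animal 6, with a muscle median of 38.1 TPM, had 22.1 TPM. The part of these tissues in the value was not tested. The log2 difference from liver was -3.90 (SE 0.43, limma adjusted p = 3.61e-08) in sublingual gland and -4.98 (SE 0.43, adjusted p = 2.85e-10) in parotid. Its highest values in pancreas (29.6 TPM) and submandibular gland (38.1 TPM) were both from animal 4. Without those libraries the means were 5.92 and 6.22 TPM instead of 9.86 and 11.5 TPM. Macrophage, adipocyte and fibroblast markers were highest by median in the same 2 libraries. So were 59.5% of all genes with a value in pancreas and 81.5% in submandibular gland. In sublingual gland the library highest in macrophage markers, that of animal 4 (median 36.8 TPM), had the lowest CYP27A1. The part of these cells in the value was not tested.

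CYP7A1, the rate-limiting enzyme of the classical route from cholesterol to bile acids, exceeded 1 TPM in liver alone. Its liver levels were 48.8, 91.1, 7.67, 8.68, 9.64 and 4.91 TPM in animals 1 to 6, with animals 1 and 2 far above the rest. It did not exceed 0.602 TPM in any other library. CYP39A1, an oxysterol 7-hydroxylase named after its values were seen, ran from 7.05 to 41.0 TPM in liver and from 1.97 to 6.12 TPM in pancreas. The pancreas and liver libraries did not overlap, and the log2 difference was -2.26 (SE 0.40, limma adjusted p = 7.19e-05).

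The steroid hormone members were largely restricted to liver. CYP17A1, which makes androgen precursors, ran from 16.3 to 246 TPM in liver (median 158) and from 0.807 to 3.12 TPM in the 24 other libraries, and was detected in every tissue but the sublingual gland. CYP21A2, the 21-hydroxylase of cortisol synthesis, ran from 5.98 to 21.9 TPM in liver and did not reach 1 TPM elsewhere, with a maximum of 0.710 TPM. CYP26A1, which degrades retinoic acid, ran from 14.3 to 86.2 TPM in liver (median 27.7) and exceeded 1 TPM outside liver in a single library, the sublingual gland of animal 1, at 1.09 TPM.

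The vitamin D 25-hydroxylase CYP2R1 was detected in every tissue at a low level. It ran from 2.73 to 6.47 TPM in liver (median 3.69), 1.84 to 2.93 in pancreas (median 2.37), 1.37 to 2.23 in parotid (median 1.60), 1.29 to 2.40 in submandibular (median 2.19) and 1.79 to 4.59 in sublingual gland (median 2.45). The liver range overlapped those of pancreas and sublingual gland. The difference did not pass the threshold in sublingual gland (log2 difference -0.36, 95% interval -0.78 to 0.06, limma adjusted p = 0.202) or in pancreas (-0.53, -0.95 to -0.11, adjusted p = 0.0518). It passed in parotid (-0.86, SE 0.20, adjusted p = 0.00106). The submandibular difference also passed (-0.72, SE 0.20, adjusted p = 0.00518). With trimmed-mean scaling these became 0.02 and 0.06, so the direction for this gene depended on the scaling. CYP27B1, the enzyme that activates vitamin D mainly in kidney, ran from 0.766 to 2.01 TPM in liver and from 0.0651 to 1.5 TPM elsewhere. CYP27B1 passed the filter only because the liver libraries were counted, so a lower level elsewhere was built into its selection. It was called lower in all 4 tissues (log2 differences of -0.82 in parotid, -1.01 in submandibular, -0.72 in sublingual gland and -0.55 in pancreas). With trimmed-mean scaling neither parotid (-0.32, limma adjusted p = 0.151) nor pancreas (-0.27, adjusted p = 0.257) passed.

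The low levels outside liver were set against those of genes that define hepatocytes. For each of the 25 members with a liver mean of at least 10 TPM, the mean in a tissue was expressed as a percent of the liver mean, and the same was done for the 13 hepatocyte markers, such as ALB and APOA1. In parotid the markers lay between 0.405% and 0.792% of their liver mean and the members between 0.465% and 2.83% (median 0.783%). In submandibular gland the markers spanned 0.425% to 0.838% and the members 0.484% to 10.8% (median 0.788%). In sublingual gland the markers spanned 0.617% to 1.02% and the members 0.583% to 9.19% (median 1.14%). Pancreas had members between 0.697% and 24.6% (median 1.41%) and markers between 0.714% and 11.8%, where the highest marker was TTR, transthyretin, which pancreatic islets also make, and the next, SERPINC1, stood at 1.14%.

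Above every marker were 12 of 25 members in parotid (95.1% of the 5287 genes with such a liver mean were above), 12 in submandibular gland (95.5% of genes) and 14 in sublingual gland (96.2%). In pancreas it was 3 (88.1% of genes), namely CYP3A43, CYP39A1 and CYP4V2, or 16 (96.8%) when TTR was left out of the markers, a choice made after seeing the data. With the TTR bar and without animal 4 it was 1. In each tissue the share of members above the markers was below the share of all genes. CYP2E1, CYP3A7, CYP2A23, CYP2A24, CYP2A26 and CYP2B6 were above every marker in none of the tissues. The part of hepatocyte transcripts in the values of these members outside liver was not tested.

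The same comparison was made within each animal, and a member was counted where it was above every marker in all 6. In parotid these were CYP27A1, CYP39A1, CYP4V2 and CYP2D6 (88.7% of all genes with such a liver mean met this). In submandibular gland they were CYP27A1 and CYP39A1 (88.0% of genes). In sublingual gland they were CYP27A1, CYP39A1, CYP2C18 and CYP4F12 (89.3%). In pancreas no member met this with TTR among the markers (70.7% of genes), and CYP39A1 and CYP4V2 did without it (89.6%). CYP39A1 in submandibular gland had a mean of 10.8% of liver that fell to 3.23% without animal 4.

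**Figure D2:**
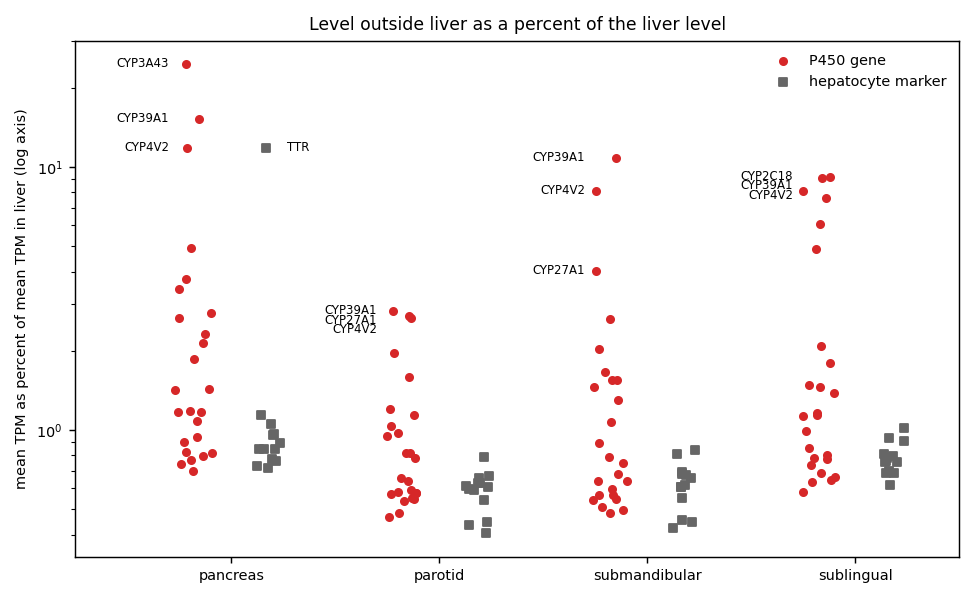
Mean TPM in each tissue outside liver as a percent of the mean in liver (log axis), for the 25 P450 genes with a liver mean of at least 10 TPM (red circles) and 13 hepatocyte markers (grey squares), horizontally spread for legibility, with the 3 highest P450 genes named. With TTR in pancreas set aside, the squares reach at most 1.14%. Within their band lie 13 circles in parotid, 13 in submandibular gland, 10 in sublingual gland and 8 in pancreas. Above it lie 12, 12, 14 and 16, up to CYP3A43 at 24.6% in pancreas.

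Among the tissues outside liver, pancreas had more of the CYP2C transcripts CYP2C8 and CYP2C76 than the salivary glands. This did not hold for the whole subfamily. CYP2C18 was higher in sublingual gland than in pancreas (log2 difference 1.38, limma adjusted p = 0.00828). CYP2C75 and CYP2C93 did not pass against pancreas in any salivary gland. CYP2C8, which oxidises arachidonic acid and several drugs, had the highest mean in pancreas, 38.6 TPM beside 30.8 TPM for CYP2C76. By median CYP2C76 was higher (30.8 beside 29.0 TPM), and without animal 3 the CYP2C8 mean was 27 TPM and that of CYP2C76 31.1 TPM. The CYP2C8 levels were 34.6, 23.4, 97.0, 11.2, 47.8 and 17.7 TPM in animals 1 to 6, against 3.61 to 7.21 TPM in parotid, 3.60 to 6.79 TPM in submandibular gland and 4.88 to 14.9 TPM in sublingual gland. All pancreas libraries were above all parotid and submandibular libraries, and that of animal 4 alone fell within the sublingual range. The log2 difference from pancreas was -2.39 (SE 0.35, limma adjusted p = 1.72e-05) in parotid, -2.33 (SE 0.35, adjusted p = 3.11e-05) in submandibular gland and -1.71 (SE 0.35, adjusted p = 0.000889) in sublingual gland, lower in 6 of 6 animals each time. These 3 differences share the pancreas libraries.

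CYP2C76 followed the same order at a lower contrast. Its pancreas levels were 24.5, 40.6, 29.4, 18.6, 39.4 and 32.2 TPM, with no library as low as the highest of the salivary glands, 16.2 TPM. The log2 difference from pancreas was -1.56 (SE 0.25, limma adjusted p = 8.17e-05) in parotid, -1.56 (SE 0.25, adjusted p = 9.30e-05) in submandibular gland and -1.03 (SE 0.25, adjusted p = 0.00531) in sublingual gland. The parotid call was lost when TPM were recomputed without the 100 most abundant genes (-0.86, adjusted p = 0.0809). The sublingual call was lost with the 12 libraries alone (adjusted p = 0.112) and without animal 2 (-0.95, adjusted p = 0.0510) or animal 5 (-0.93, adjusted p = 0.0575). In pancreas, CYP2C76 stood at 1.86% and CYP2C8 at 4.93% of their liver mean, both above the markers other than TTR. Within single animals each was above these markers in 4 of 6, and above every marker including TTR in 0.

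CYP3A43, a member of the CYP3A cluster chosen here after its values were seen, differed more between pancreas libraries than any other member. Its levels were 0.743, 0.846, 66.0, 1.34, 19.5 and 1.11 TPM in animals 1 to 6. The library of animal 3 also had the highest INS (insulin, 127239 TPM against 408 to 11444 TPM) and the highest of 4 of the 5 islet markers, and its CYP2C8 was the highest as well. The library of animal 5, with 10727 TPM of INS, was not above animal 1 in INS, and the part of islet tissue in the CYP3A43 value was not tested. The pancreas mean of CYP3A43, 24.6% of liver, was 7.76% without animal 3, and its difference between parotid and pancreas (log2 difference -1.75, SE 0.56, limma adjusted p = 0.0344) no longer passed without that animal (-1.07, adjusted p = 0.214) or without animal 5 (-1.34, adjusted p = 0.170). It also missed the threshold under each of the other scalings, at -1.40 with trimmed means (adjusted p = 0.0802).

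Over all tested members, 5 were lower in parotid than in pancreas (13.6% of all genes were lower) and 0 were higher by limma (2.24% of genes), also at an unadjusted p under 0.05. Besides CYP2C8, CYP2C76 and CYP3A43 these were CYP39A1 (log2 difference -1.47, SE 0.40, adjusted p = 0.0127) and CYP2F1, a P450 of lung (-1.24, SE 0.35, adjusted p = 0.0178), both named because of these calls. In submandibular gland CYP2C8 and CYP2C76 were the 2 lower members (7.46% of genes), and 0 were higher (2.25% of genes), also at an unadjusted p under 0.05. Without the pancreas and submandibular libraries of animal 4 this became 8 lower members, while the share over all genes rose to 26.1%. The further 6 were CYP2D6 (log2 difference -1.08, limma adjusted p = 0.0123), CYP39A1 (-1.29, adjusted p = 0.00839), CYP3A43, CYP4V2, CYP2F1 and CYP27B1. In parotid, leaving out animal 3 reduced the count from 5 to 2, with CYP39A1 at -1.45 (adjusted p = 0.0687) and CYP2F1 at -1.14 (adjusted p = 0.124).

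The sublingual gland differed from the other tissues by CYP2C18 and CYP4F12, both named after the calls were seen. CYP2C18, a CYP2C form found in epithelia, was at 7.33, 5.70, 6.36, 15.3, 7.38 and 5.83 TPM in the sublingual glands of animals 1 to 6. Its highest library was 3.02 TPM in pancreas, 1.83 TPM in parotid and, in the submandibular gland, 1.53 TPM, so that no library of these overlapped the sublingual range. The log2 difference was 1.38 (SE 0.36, limma adjusted p = 0.00828) for sublingual gland against pancreas, -2.27 (SE 0.36, adjusted p = 5.65e-05) for parotid against sublingual gland and -2.01 (SE 0.36, adjusted p = 0.000417) for submandibular against sublingual gland. Against pancreas it became 1.01 (adjusted p = 0.102) without the sublingual libraries of animals 1 and 4, an alternative added after seeing the data, and 0.93 (adjusted p = 0.143) when TPM were recomputed without the 100 most abundant genes. The RefSeq table lists CYP2C75, which has its own values here (1.72 to 3.78 TPM in sublingual gland), as a synonym of CYP2C18.

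CYP4F12, a hydroxylase of fatty acids and eicosanoids, was at 11.2, 10.8, 7.52, 9.37, 4.33 and 2.30 TPM in the sublingual glands of animals 1 to 6 and at 0.771 to 1.62 TPM in parotid, without overlap. In pancreas and submandibular gland the library of animal 4 was far above the others, at 13.7 and 8.61 TPM against at most 3.69 and 1.74 TPM. The log2 difference was 1.16 (SE 0.32, limma adjusted p = 0.0149) for sublingual gland against pancreas, higher in 5 of 6 animals, and -1.84 (SE 0.32, adjusted p = 0.000188) for parotid and -1.35 (SE 0.32, adjusted p = 0.00397) for submandibular against sublingual gland. The first of these did not pass when animal 1 (0.92, adjusted p = 0.158), animal 2 (0.91, adjusted p = 0.167) or animal 5 (1.18, adjusted p = 0.0607) was left out.

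In all, 2 members were higher (10.4% of genes) and 3 lower (3.51% of genes) in sublingual gland than in pancreas, the latter being CYP2C8, CYP2C76 and CYP3A43. When TPM were recomputed without the 100 most abundant genes, 2 were higher (5.66% of genes) and 8 lower (16.8% of genes). CYP3A43 in the values as deposited (log2 difference -1.66, SE 0.56, limma adjusted p = 0.0481) was lower in 4 of 6 animals. It lost the call when any of animals 1, 2, 3 and 5 was left out, and without the animal block (adjusted p = 0.0715). Parotid had 3 lower members than sublingual gland (40.6% of genes), namely CYP2C18, CYP4F12 and CYP27A1, and submandibular gland had 2, CYP2C18 and CYP4F12 (27.2% of genes). Both member shares were below the share of all genes. Higher members were 0 in both comparisons by limma (0.893% and 0.753% of genes), also at an unadjusted p under 0.05. For CYP27A1 in parotid the log2 difference was -1.07 (SE 0.43, limma adjusted p = 0.0469). It became -0.12 with trimmed-mean scaling (adjusted p = 0.794) and 0.28 when TPM were recomputed without the 100 most abundant genes (adjusted p = 0.499), and it lost the call when any of animals 1, 2, 3 and 5 was left out. With those recomputed TPM 5 members were higher (18.9% of genes) and 3 lower (4.05%) in parotid than in sublingual gland, and 4 were higher (21.8%) and 1 lower (2.65%) in submandibular than in sublingual gland. CYP2C18 and CYP4F12 then missed the threshold in submandibular gland, at -1.19 (adjusted p = 0.0571) and -0.39 (adjusted p = 0.324). With trimmed-mean scaling CYP2D6 was higher in parotid than in sublingual gland (1.03, SE 0.22, adjusted p = 0.00169), a difference of 0.03 in the values as deposited.

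No member passed the threshold between parotid and submandibular gland. By limma 0 of 29 members passed, also at an unadjusted p under 0.05, and 0.347% of all genes passed in either direction. In the submandibular library of animal 4, 23 of the 32 members were above all 5 other submandibular libraries, as were 81.5% of all genes with a value there. In the pancreas of the same animal it was 12 of 32 members and 59.5% of genes. Without these 2 libraries 10 members rather than 2 were lower in submandibular than in sublingual gland, where the share over all genes rose from 27.2% to 66.1%, and 7 rather than 3 were lower in parotid than in sublingual gland (57.6% of genes). CYP27A1 was among them, with a submandibular difference of -1.44 (SE 0.29, limma adjusted p = 0.000261).

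**Figure D3:**
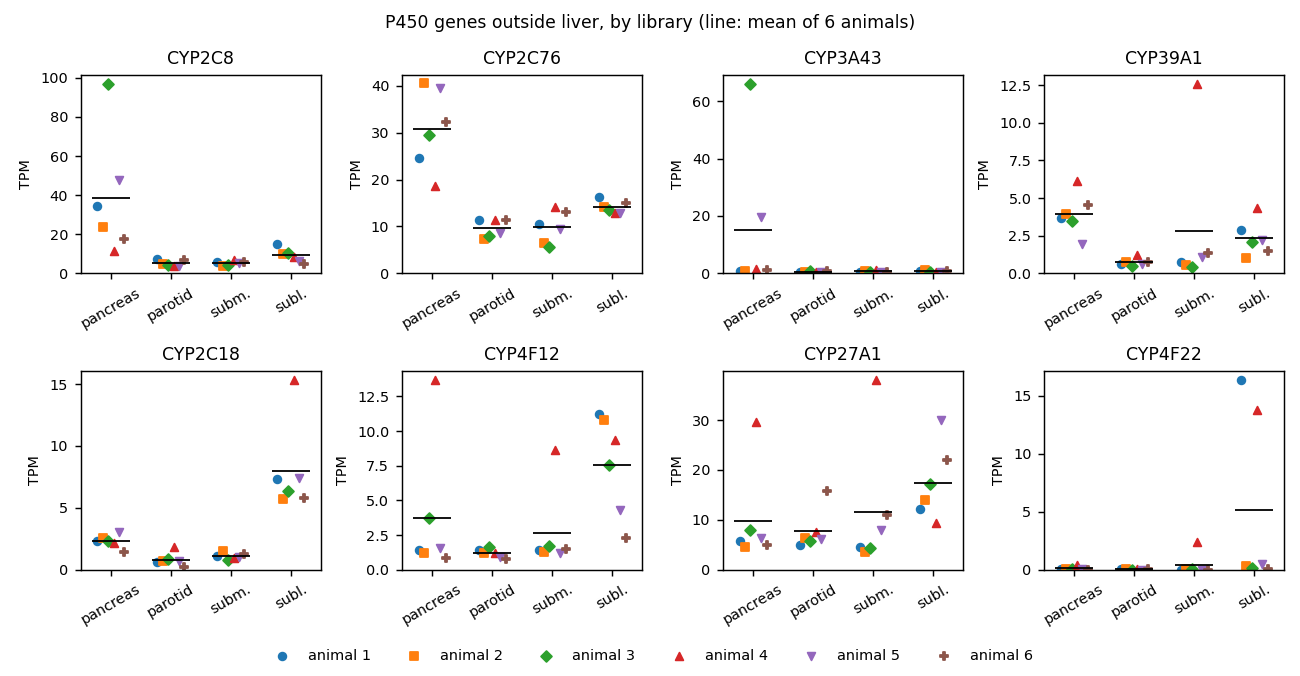
TPM of 8 P450 genes in the 24 libraries outside liver (linear axes from 0, each panel with its own scale), with a symbol and colour for each animal and a line at the mean of 6 animals (subm., submandibular; subl., sublingual). CYP2C8 and CYP2C76 are highest in pancreas, CYP2C18 in sublingual gland, and single libraries set the pancreas mean of CYP3A43 (66.0 TPM in animal 3), the submandibular mean of CYP39A1 (12.6 TPM in animal 4) and the sublingual mean of CYP4F22 (16.3 and 13.8 TPM in animals 1 and 4).

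The livers of the 6 animals differed among themselves in their P450 levels. For the 25 members with a liver mean of at least 10 TPM, the highest animal was 1.81 to 34.6 times the lowest (median 3.66). The same ratio over the 13 hepatocyte markers was 1.62 to 6.92 (median 2.70). CYP2C76 varied least and CYP1A1 most. CYP17A1 was 16.3 TPM in animal 5 and 108 to 246 TPM in the other 5. In 10 of the 32 members animals 1, 3 and 4 were all below animals 2, 5 and 6, all of them among the 25 with a liver mean of at least 10 TPM (10 of 25, or 40%, beside 35.8% of all genes with such a mean and 8 of the 13 hepatocyte markers). In 1 of these 25, CYP4F12, they were all above, beside 24.1% of all genes. This split was noticed in the data and has no label behind it.

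**Figure D4:**
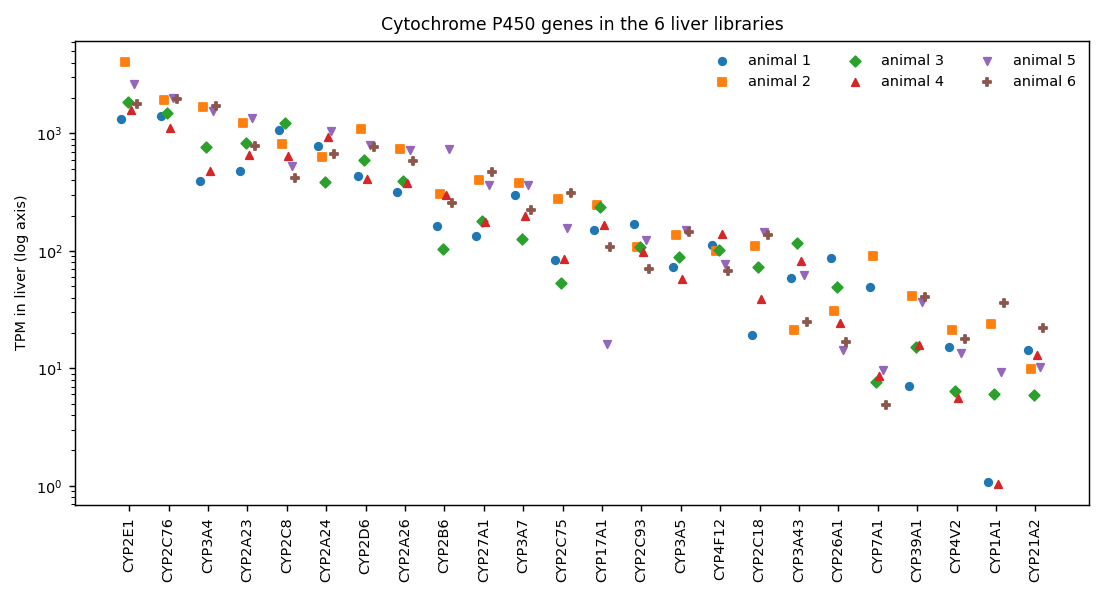
TPM in liver (log axis) of 24 of the 25 P450 genes with a liver mean of at least 10 TPM, ordered by that mean, with a symbol and colour for each of the 6 animals. Most genes span less than a factor of 10 between animals, and CYP1A1 (1.05 to 36.2 TPM), CYP7A1 (4.91 to 91.1 TPM) and CYP17A1 (16.3 to 246 TPM) span more.

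Genes that serve P450 enzymes were examined as 9 electron donors, 12 genes of heme synthesis and breakdown and 14 regulators, of which 34 passed the filter. Their counts stand beside 53.4% of all genes lower than in liver in parotid, 45.1% in submandibular gland, 18.7% in sublingual gland and 23.6% in pancreas. Of the electron donors 9 of 9 were lower in parotid, 8 in submandibular gland and 6 each in sublingual gland and pancreas, where 3 did not pass. POR, the reductase that passes electrons to microsomal P450 enzymes, had a mean of 223 TPM in liver and 6.04 TPM in parotid (log2 difference -4.94, SE 0.44, limma adjusted p = 4.70e-10). In sublingual gland its mean was 28.5 TPM (-3.04, SE 0.44, adjusted p = 3.09e-06). These differences are smaller than those of the leading drug-metabolising members.

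Among the heme genes 11 of 12 were lower in parotid and submandibular gland, 10 in pancreas and 5 in sublingual gland, where 6 did not pass. ALAS1, the rate-limiting enzyme of heme synthesis, had a mean of 92.5 TPM in liver, 23.8 TPM in sublingual gland and 5.12 TPM in pancreas (log2 difference from liver -1.93 and -4.0, SE 0.30 each, limma adjusted p = 1.04e-05 and 2.16e-11). The 1 gene that was higher than in liver, in all 4 tissues, was BLVRA, biliverdin reductase, with means of 6.31 TPM in liver and 65.5 TPM in sublingual gland (3.07, SE 0.39, adjusted p = 3.67e-07). Regulators were lower in 12 of 13 cases in each salivary gland and in 11 of 13 in pancreas. NR1I2, the receptor PXR that induces CYP3A genes, had means of 53.3 TPM in liver, 1.30 TPM in pancreas and at most 0.444 TPM in the salivary glands. NR5A2, a regulator of CYP7A1 that is also an acinar factor, did not pass in pancreas, where its mean was 10.4 TPM beside 6.55 TPM in liver (0.36, SE 0.34, adjusted p = 0.442).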

How the data were processed

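RNA of 30 flash-frozen pieces was sequenced in paired 150-base reads, per the labels. The deposited table gives TPM per gene, scaled by the authors to transcript length and to each library's total. The submitters' processing notes name kallisto, FastQC, MultiQC, cutadapt, HISAT2, SAMtools, featureCounts and DESeq2 without roles or versions, and the build is not given in the sources used here. Read counts were not used, so depth is unknown and no counting interval is given. TPM are shares, so abundant transcripts can lower the values of all others in a library. Members, roles, marker and pathway lists were chosen with earlier results of these data known. All 30 libraries entered a single limma fit (3.58.1, R 4.3.3) of log2(TPM + 1) on tissue and animal, with a variance trend, over the 13550 genes that reached 1 TPM in 6 or more libraries; the threshold was an adjusted p of 0.05. Fold changes on that scale understate those of low genes. The script was tested on simulated data. Named were the 5 largest falls and any rises against liver, the 3 most abundant members of each tissue, members highest outside liver or present everywhere, and textbook members of each role; the text says where others were chosen by their values. Same-numbered samples come from 1 animal: after removal of tissue means, libraries of the same animal correlated at 0.161 on average and those of different animals at -0.0186. Replicates are separate animals. RefSeq symbols matched 31 of 32 members. Alternatives were other scalings, filters, pseudocounts, no variance trend, no animal block, fewer libraries and each animal left out. Single values of 1 member are not reported here.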

Additional observations from a re-analysis of the deposited data

Results flagged for a closer look

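Only the members named by the rule stated above were examined for a single library far from the rest of the 6. Other members, such as CYP4F12 and CYP2C18, were not examined. Each tissue in which a named member was detected formed a set. The measure was Dixon's 95% criterion on the gap of a library to the nearest other. Over 65 sets of gene and tissue 4 libraries met this, and chance alone gives about 1 in 20 sets. CYP17A1 in liver was 16.3 TPM in animal 5, where the next value was 108 TPM. CYP27A1 in pancreas was 29.6 TPM in animal 4, next to 7.91 TPM. CYP27A1 in parotid was 15.8 TPM in animal 6, next to 7.59 TPM, in the library with the most skeletal muscle transcripts. CYP2D6 in submandibular gland was 25.0 TPM in animal 4, next to 11.3 TPM. The pancreas and submandibular libraries of animal 4 were low in acinar markers, as was its sublingual library. The part of this in these values was not tested.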

How the results depend on the processing

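Most falls from liver were called in each setting tried, with CYP2R1, CYP27B1 and CYP2F1 losing the call in some: counts ranged from 23 to 29 members in parotid and submandibular gland and from 22 to 28 in sublingual gland and 22 to 29 in pancreas, the lowest with 23 members tested. Of 284 other values of the counts, 245 lay within 1.5 times, and of 2207 values of single genes 2144 kept direction and side of the threshold, 56 lost the call and 7 reversed. CYP2R1 against liver reversed to 0.020 in parotid and 0.063 in submandibular gland (trimmed-mean scaling), 0.080 and 0.14 (quantile) and 0.40 and 0.50 (without the 100 most abundant genes), and CYP27A1 in parotid against sublingual gland to 0.28 with the last. Without the replicate block 3 members passed for sublingual gland against pancreas, in place of 5, and the block changed no other count beyond 1.5 times. That comparison gave 8 with trimmed-mean scaling, 10 with quantile normalization, 10 without the 100 most abundant genes (2 higher, 8 lower), 2 with the 12 libraries alone, 3 without the sublingual libraries of animals 1 and 4, and 2 to 6 with each animal left out (fewest without animal 2 or 5). Parotid against pancreas gave 3 without the 100 genes and 2 (without animal 3) to 7 with an animal left out. Submandibular gland against pancreas gave 4 with a pseudocount of 0.1, 5 with 12 libraries, 8 without 2 libraries of animal 4 and also without the parotid of animal 6, and 2 to 8 (without animal 4) by animal. Parotid against sublingual gland gave 8 without the 100 genes, 7 with the pseudocount, 5 with no variance trend, 5 with 12 libraries, 7 and 8 without 2 and 3 libraries, and 2 to 8 (without animal 4) by animal. Submandibular against sublingual gland gave 5, 1 with 12 libraries, 10 and 10 without 2 and 3 libraries, and 2 to 6 (without animal 4) by animal. Detected members at 5 TPM were 6 in pancreas, 4 in parotid, 3 in submandibular and 8 in sublingual gland, and 24 in parotid and 25 in submandibular gland without the 100 genes. Members above every hepatocyte marker in pancreas numbered 1 without 2 or 3 libraries, 16 without TTR, and 1 (without animal 4) to 3 by animal. Leaving out the sublingual libraries of animals 1 and 4, or TTR, was chosen after seeing the data. The share of all genes called also moved with the setting. For genes lower in submandibular gland than in pancreas it rose from 7.46% to 26.1% without 2 libraries of animal 4. This share is given above for some settings only, so a changed count is not by itself a change particular to P450 genes. Unless the setting itself tests fewer genes or libraries, the cause of a changed count was not tested. TPM carry no depth, so precision at low levels is unknown.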

Other observations

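Some member values were singled out after they were seen and belong to no comparison above. CYP3A5, a CYP3A form of several human tissues, was 24 TPM in the sublingual gland of animal 4 and 0.861 to 3.76 TPM in the other 5 sublingual libraries, so that its mean there was 1.57 TPM without that library. That library was also the lowest sublingual one in salivary acinar markers, and the part of this in the value was not tested. CYP2F1 was 6.48 TPM in the sublingual gland of animal 1 and 7.2 TPM in the submandibular gland of animal 4.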
